A study of Mus musculus with 44 samples.

Results

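The genes examined were 7 liver-type plasma protein genes among the 31484 genes of the gastric corpus count data: Gc, Ahsg, Agt, Vtn, Ttr, Alb and Apoa1. Gc, Ahsg, Agt and Vtn were picked on these same data because their counts were lower in knockout mice given netazepide (NTZ) than in knockout mice given vehicle. Ttr, Alb and Apoa1 were set beside them as other genes for proteins that the liver secretes into plasma. The choice had no numerical threshold. Because the choice used KO/NTZ versus KO/PEG, that comparison is described for the 7 genes without a test. The name first given to the group, plasma proteins lowered by NTZ, held for 4 of the 7 genes: Ttr, Alb and Apoa1 had fitted log2 fold changes of -0.09 ± 0.20, 0.43 ± 0.37 and -0.12 ± 0.18 (standard error), so the group is called here by its plasma protein genes alone.

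RNA from biopsies of the gastric corpus was sequenced in BalbC mice that were 13 months old, with 44 libraries in 4 groups. KO mice lack the beta subunit of the gastric proton pump H+/K+ATPase (Atp4b) in the whole body, and therefore make little acid and have high gastrin. The groups were wild type given PEG vehicle (WT/PEG, 11 libraries), wild type given NTZ (WT/NTZ, 9), knockout given PEG (KO/PEG, 13) and knockout given NTZ (KO/NTZ, 11). NTZ, named YF in the labels, blocks the gastrin receptor Cckbr. All mice were female according to the methods of the study, all received injections over most of their life, and both vehicle groups received PEG, so no group was left uninjected. A library is counted as 1 sample, although 2 WT/PEG libraries carry the same animal number and the number 110 stands on 1 KO/PEG and 1 KO/NTZ library. The methods of the study count fewer KO/PEG mice than there are KO/PEG libraries, so some of these libraries may share a mouse, and p-values would then be too small.

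Hepatocytes make most of the protein dissolved in blood plasma, and their genes for it are read from short promoters by factors such as HNF4, FOXA and C/EBP, several of which are also active in the epithelium of the gut. Gc is the vitamin D-binding protein, Alb is albumin, Ttr is transthyretin, which carries thyroid hormone and the retinol-binding protein Rbp4, and Apoa1 is the main protein of high-density lipoprotein. Ahsg, or fetuin A, binds calcium phosphate in plasma, Agt is angiotensinogen, the precursor from which renin and Ace release angiotensin, and Vtn is vitronectin, an adhesion protein that binds integrins and the urokinase receptor. In the corpus, gastrin acts through Cckbr on enterochromaffin-like (ECL) cells, neuroendocrine cells that make histamine with the enzyme encoded by Hdc.

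The 150 bases before the RefSeq start of 6 of the 7 genes are shown because 4 of them were chosen for lower counts with NTZ in knockouts and because the promoters of these genes are where liver factors are known to act. They are from RefSeq on GRCm38.p6, 5′ to 3′ along the gene. Capitals mark GTTAAT, a motif known from liver promoters, and TATAAA, the TATA box, on either strand.
Gc, chr5:89457899-89458048, minus strand: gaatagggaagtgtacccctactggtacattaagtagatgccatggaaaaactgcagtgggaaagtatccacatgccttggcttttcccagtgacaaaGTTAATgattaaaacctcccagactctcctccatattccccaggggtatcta
Vtn, chr11:78498970-78499119, plus strand: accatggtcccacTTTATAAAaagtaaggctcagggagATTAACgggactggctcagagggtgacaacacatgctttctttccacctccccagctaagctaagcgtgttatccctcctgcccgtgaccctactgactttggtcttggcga
Alb, chr5:90460720-90460869, plus strand: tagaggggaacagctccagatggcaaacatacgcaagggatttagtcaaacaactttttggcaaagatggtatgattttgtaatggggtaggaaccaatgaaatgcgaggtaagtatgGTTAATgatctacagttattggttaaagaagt
Ahsg, chr16:22891865-22892014, plus strand: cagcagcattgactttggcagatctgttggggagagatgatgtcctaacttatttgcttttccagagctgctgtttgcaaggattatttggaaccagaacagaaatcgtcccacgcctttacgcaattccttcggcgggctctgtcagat
Agt, chr8:124569707-124569856, minus strand: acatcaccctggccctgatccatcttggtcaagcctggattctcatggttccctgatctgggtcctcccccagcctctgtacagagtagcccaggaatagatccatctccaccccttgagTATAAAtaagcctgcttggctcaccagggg
Apoa1, chr9:46228480-46228629, plus strand: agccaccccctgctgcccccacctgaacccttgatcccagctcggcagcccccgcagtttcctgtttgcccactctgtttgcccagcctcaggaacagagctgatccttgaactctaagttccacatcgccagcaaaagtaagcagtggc

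GTTAAT or its complement ATTAAC lay in the promoters of Gc, Vtn and Alb, beginning 52, 112 and 32 bases before the RefSeq start, from which all positions here are counted, with the Vtn match on the opposite strand. Of 32851 RefSeq promoters, 3.71% held this motif in the 150 bases shown. TATAAA was found in Agt, beginning 30 bases before the start, and in Vtn, where matches on both strands overlap and the nearer one ends 130 bases before the start. It was held by 7.57% of promoters of this length. The half-site AGGTCA of nuclear receptors, also searched on both strands, was in none of the 6 sequences and in 8.58% of all promoters. In Ahsg and Apoa1 none of the 3 motifs was found. Gc, Vtn and Alb share GTTAAT but did not share a response to NTZ in knockouts, as described below for each gene. These are letter matches, not measured binding.

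The genes lie apart in the genome, except that Gc and Alb are both on chromosome 5. On GRCm38 the annotated spans are chr5:89417522-89457898 for Gc, chr16:22891277-22899449 for Ahsg, chr8:124556534-124569706 for Agt, chr11:78499091-78502324 for Vtn, chr18:20665280-20674321 for Ttr, chr5:90460897-90476602 for Alb and chr9:46228580-46230466 for Apoa1. Each is protein coding. These spans are those of GENCODE, whose gene starts differ from the RefSeq starts for 4 of the 6 promoters shown. The Ahsg sequence lies wholly inside the GENCODE span of the gene, those of Vtn and Apoa1 run past the first base of the span, and that of Alb ends before it. All 7 passed the filter on low counts and none was at 0 in any library.

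Counts are given as CPM, counts scaled to a common library total after TMM normalization, which adjusts for library composition. The total per library was 6065084 to 21945124 counts. Divided by this total alone, without TMM normalization, 3 counts correspond to 0.137 to 0.495 CPM. Atp4b was at 2140 to 5740 CPM in wild-type libraries and at 2.28 to 40.6 CPM in knockout libraries, as the labels have it. The WT/NTZ library numbered 99 stood apart in Fga, Fgb, Fgg, Serpina3k and Kng1, genes that hepatocytes express strongly. Together with Apoh, which at 0.186 CPM was not above its highest value elsewhere (0.439 CPM), these 6 genes summed to 5.02 CPM there and to 0.543 CPM or less in each of the other 43 libraries. The KO/PEG libraries numbered 46 and 52 stood apart in 6 red blood cell genes, which summed to 4110 and 3770 CPM, against 62.6 to 1390 CPM in the rest. Genes of squamous forestomach epithelium were unevenly present in WT/NTZ, with sums of 0.465 to 3500 CPM, against at most 577 CPM in the other groups. Of 27 hepatocyte enzymes and transporters, 14 stayed under 1 CPM in all 44 libraries, among them the urea cycle genes Otc and Cps1 at 0 in 41 and 28 libraries and the bile acid enzyme Cyp7a1 at 0 in 43. The other 13 reached 1 CPM or more in at least 1 library. Of these, Fah and Ass1 had medians of 31.5 and 15.7 CPM with no library at 0, and Cyp2e1 and Arg1 reached 60.8 and 10.9 CPM.

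Gc, the carrier of vitamin D, had the largest fitted difference between the knockout groups among the 7 genes. It was at 9.21 to 38.2 CPM in KO/PEG (median 22.6) and at 1.83 to 5.9 CPM in KO/NTZ (median 3.72). Wild-type libraries held 7.58 to 21.6 CPM in WT/PEG (median 9.99) and 3.95 to 12.6 CPM in WT/NTZ (median 7.9). Every KO/NTZ library was below every KO/PEG library, and also below every WT/PEG library, as in 17.2% of genes. The means ± SD were 23.3 ± 9.73 CPM in 13 KO/PEG and 3.61 ± 1.47 CPM in 11 KO/NTZ libraries, a fitted log2 fold change of -2.65 (SE 0.24), or 6.28-fold lower with NTZ. In bulk tissue, here and in all comparisons that follow, fewer cells of a type and less RNA per cell cannot be told apart. The libraries numbered 46 and 52 held the pair of highest Gc values in KO/PEG, 35.4 and 38.2 CPM, and without them the log2 fold change was -2.49 (SE 0.24).

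Ahsg, the fetuin that keeps calcium phosphate in solution, was the lowest of the 4 picked genes. It was at 3.73 to 14.0 CPM in KO/PEG (median 6.08), at 0.172 to 2.54 CPM in KO/NTZ (median 1.17), at 1.08 to 5.49 CPM in WT/PEG (median 2.85) and at 0.4 to 3.16 CPM in WT/NTZ (median 1.46). The knockout groups did not overlap, while the KO/NTZ values overlapped those of both wild-type groups. The fitted log2 fold change in knockouts was -2.57 (SE 0.31), 5.94-fold lower with NTZ. Of 14901 genes tested, 5 (0.0336%) had every KO/NTZ library below every KO/PEG library, namely Gc, Ahsg, Serpina7, Dynap and Rspo4. Since Gc and Ahsg were picked on this contrast, their place among the 5 is a description. Serpina7 encodes thyroxine-binding globulin, a further plasma carrier of the liver.

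Agt, the precursor of angiotensin, was at 30.2 to 87.7 CPM in KO/PEG (median 63.5) and at 19.5 to 56.4 CPM in KO/NTZ (median 26.7). In wild type it was at 7.93 to 17.5 CPM with PEG (median 10.7) and at 6.24 to 15.0 CPM with NTZ (median 8.73). The knockout groups overlapped, with 6 of 11 KO/NTZ libraries below the lowest KO/PEG library, and all KO libraries of both groups lay above all wild-type libraries. Of all genes, 16.0% had every KO/NTZ library above every WT/PEG library and 14.4% above every WT/NTZ library. The fitted log2 fold change with NTZ in knockouts was -0.96 (SE 0.17), 1.95-fold lower.

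Vtn, the integrin-binding adhesion protein, was at 21.1 to 66.7 CPM in KO/PEG (median 34.1) and at 9.2 to 22.8 CPM in KO/NTZ (median 17.4). WT/PEG libraries held 11.2 to 30.8 CPM (median 18.8) and WT/NTZ libraries 9.49 to 25.5 CPM (median 18.8). The KO/NTZ range thus overlapped those of both wild-type groups, and 12 of 13 KO/PEG libraries were above the highest KO/NTZ library. The log2 fold change in knockouts was -1.40 (SE 0.21), 2.64-fold lower with NTZ.

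The other 3 genes did not separate the knockout groups. Ttr, the carrier of thyroid hormone, was at 41.4 to 240 CPM in KO/PEG (median 105) and 85.5 to 166 CPM in KO/NTZ (median 108), with 77.1 to 283 CPM in WT/PEG (median 142) and 75.6 to 164 CPM in WT/NTZ. Apoa1, the high-density lipoprotein gene, was at 283 to 1250 CPM in KO/PEG (median 696) and 417 to 994 CPM in KO/NTZ (median 721), with 812 to 1940 CPM in WT/PEG (median 1120) and 621 to 1390 CPM in WT/NTZ (median 1050). In both genes the KO/NTZ libraries lay inside the range of the KO/PEG libraries. Alb, the most abundant protein of plasma, was at 0.338 to 9.94 CPM in KO/PEG (median 5.3) and 3.62 to 9.97 CPM in KO/NTZ (median 6.28). It was at 0.972 to 3.69 CPM in WT/PEG (median 2.05). In WT/NTZ (median 2.39) it was at 1.16 to 3.27 CPM in 8 libraries and at 19.2 CPM in the library numbered 99.

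**Figure D1:**
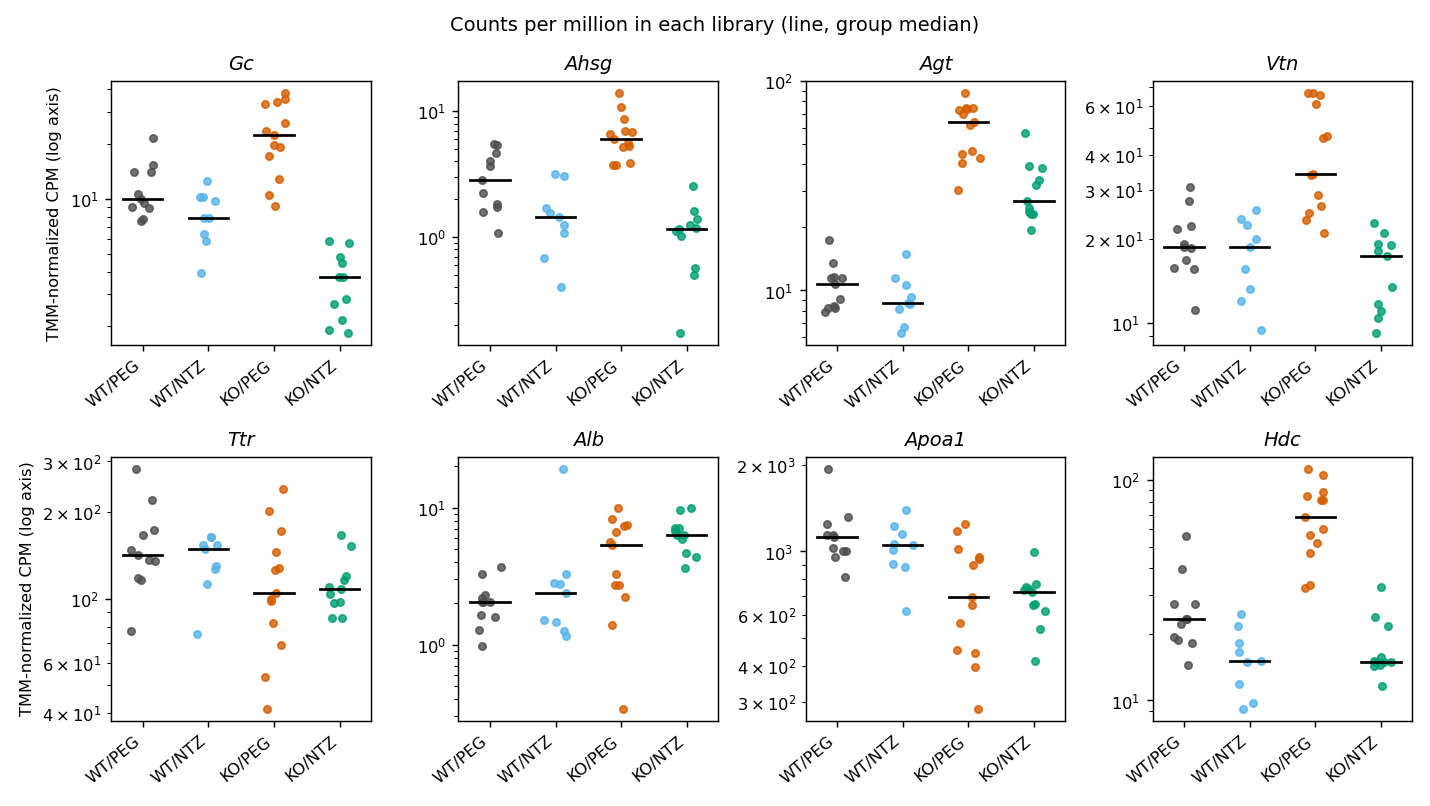
TMM-normalized CPM on log axes for the 7 genes and for Hdc, with 1 point for each of 44 libraries and a line at each group median. The KO/NTZ points lie below all KO/PEG points for Gc and Ahsg, the KO points lie above all wild-type points for Agt, and 1 WT/NTZ point for Alb stands at 19.2 CPM.

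Animal numbers were unevenly spread over the groups, with 10 of 11 KO/NTZ, 6 of 13 KO/PEG, 5 of 9 WT/NTZ and 0 of 11 WT/PEG libraries from animals numbered below 100. Restricting the knockout comparison to these animals left the fitted log2 fold changes of Gc and Ahsg at -2.59 and -2.43, those of Vtn and Agt at -1.08 and -0.67, and that of Alb at 0.73. Ttr and Apoa1 changed sign, to 0.43 (SE 0.21) and 0.38 (SE 0.23). The order of the 4 picked genes was kept.

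The comparison of WT/NTZ with WT/PEG shares no library with the one the genes were picked on, and asks whether NTZ moved these genes in mice with Atp4b intact. Acid and gastrin were not the same in these groups. The study reported a higher stomach pH and more plasma gastrin with NTZ than with PEG in wild type. None of the 7 genes passed the threshold of 0.05 for p adjusted over all genes tested by the edgeR quasi-likelihood test, nor under any of the 13 alternatives, DESeq2 and limma-trend among them. Their median log2 fold change was -0.191, against -0.015 over all genes. The background was 1.03% of genes higher and 0.00671% lower, and 2 of the 7 genes had an unadjusted p under 0.05. Ahsg was lower with NTZ in wild type (log2 fold change -0.97, SE 0.33, p = 0.00546, adjusted p = 0.229), with 7 of 9 WT/NTZ libraries below the WT/PEG median. Without the library numbered 99 it was -1.16 (adjusted p = 0.0865), and over all alternatives its adjusted p was 0.0576 to 0.537. Gc was 1.4-fold lower (log2 fold change -0.49, SE 0.25, p = 0.055, adjusted p = 0.665), with 6 of 9 libraries below the WT/PEG median.

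Agt, Vtn, Ttr and Apoa1 had fitted log2 fold changes of -0.20, -0.15, -0.19 and -0.16 in wild type, with 95% intervals of -0.57 to 0.18, -0.58 to 0.28, -0.63 to 0.25 and -0.55 to 0.23. A change of the size seen for Agt or Vtn in knockouts lies outside these intervals, and changes within them remain compatible with the data. Alb was the only member fitted higher with NTZ in wild type (0.92, SE 0.43, p = 0.0351, adjusted p = 0.559), and this rested on the library numbered 99, without which the log2 fold change was -0.01 (SE 0.35). The part of other tissue in that library in the Alb value was not tested. As a description that contains the contrast the genes were picked on, the NTZ effect in KO minus that in WT was -2.17 (SE 0.34) for Gc, -1.60 (SE 0.45) for Ahsg, -1.25 (SE 0.30) for Vtn, -0.77 (SE 0.25) for Agt, -0.50 (SE 0.56) for Alb, 0.10 (SE 0.30) for Ttr and 0.04 (SE 0.27) for Apoa1.

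Loss of Atp4b without the drug raised 5 of the 7 genes in KO/PEG versus WT/PEG and lowered 1, against a background of 37.5% of genes higher and 37.2% lower. This comparison shares the KO/PEG libraries with the contrast used in the choice, so high KO/PEG values favour both. Agt rose 5.56-fold (log2 fold change 2.48, SE 0.18, adjusted p = 2.75e-15), and it was among the 5.46% of genes with every KO/PEG library above every WT/PEG library. Alb, Ahsg, Vtn and Gc rose 2.3-fold, 2.14-fold, 2.11-fold and 1.99-fold, with adjusted p of 0.00599, 8.04e-04, 9.89e-06 and 1.17e-04. In each of these 4 genes some KO/PEG libraries lay inside the WT/PEG range. Apoa1 fell 1.54-fold (log2 fold change -0.63, SE 0.18, adjusted p = 0.00189), and Ttr did not pass the threshold (-0.38, SE 0.20, adjusted p = 0.0876). Among animals numbered 100 or above Apoa1 was at -0.27 (adjusted p = 0.161, over all alternatives 5.4e-04 to 0.161), while the other 5 calls held. Markers of other cell types moved with this comparison. Genes of pancreas type, exocrine and islet, summed to 19500 to 53300 CPM in WT/PEG and 511 to 13700 CPM in KO/PEG, chief and neck cell genes to 90100 to 210000 and 5020 to 65500 CPM, parietal cell genes to 9700 to 15800 and 2260 to 7560 CPM, and neuroendocrine genes to 650 to 1190 and 942 to 2710 CPM. These sums hide opposite moves within lists. Of 6 chief and neck cell genes, 3 rose and 3 fell. Tff2 and Muc6 rose (log2 fold changes 3.7 and 3.9), and Pgc fell (-3.9). Of 9 pancreas-type genes tested 3 rose and 5 fell. Clps fell 9.22-fold (adjusted p = 1.6e-08), while Cela1, Ctrb1 and Sycn rose 4.21-fold, 4.26-fold and 2.09-fold. Which cells the pancreas-type counts came from was not tested, so their sum does not measure pancreas tissue. Of 20 neuroendocrine genes 5 rose and 7 fell. The parietal sum includes Atp4b, the gene lost in knockouts, at a mean of 3920 CPM in WT/PEG and 6.84 CPM in KO/PEG. The median mitochondrial share of counts was 9.53% in WT/PEG and 4.83% in KO/PEG. The part of these differences in the results of the 7 genes was not tested.

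KO/NTZ versus WT/PEG shares the KO/NTZ libraries with the choice. In it 2 of the 7 genes were higher and 4 lower. Of all 14901 genes 11460 were called, so a difference from wild type does not set these genes apart. Gc and Ahsg were 3.15-fold and 2.77-fold lower (adjusted p = 8.69e-08 and 7.31e-05). Agt was still 2.85-fold higher (log2 fold change 1.51, SE 0.18, adjusted p = 8.98e-10) and Alb 3.08-fold higher (adjusted p = 4.26e-04). For Vtn the difference was -0.33 (SE 0.21, 95% interval -0.74 to 0.08, adjusted p = 0.152). Apoa1 was 1.67-fold lower (adjusted p = 4.72e-04), and Ttr 1.38-fold lower at an adjusted p of 0.0428 that rose to at most 0.0698 over the alternatives. The backgrounds were 38.5% of genes higher and 38.5% lower.

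Against WT/NTZ, where both groups had the drug, KO/NTZ libraries had 2.25-fold less Gc (adjusted p = 8.68e-05), 3.27-fold more Agt (adjusted p = 8.31e-10) and 1.5-fold less Apoa1 (adjusted p = 0.0077), with backgrounds of 35.6% higher and 36.8% lower. This comparison too shares the KO/NTZ libraries with the choice, so low KO/NTZ values in the picked genes favour lower values here. Ahsg, Vtn and Ttr did not pass, at log2 fold changes of -0.50, -0.18 and -0.28. Alb was at 0.70 (adjusted p = 0.126). Without the library numbered 99 it was at 1.65 (adjusted p = 8.72e-05, over all alternatives 8.72e-05 to 0.831), and each of the 11 KO/NTZ libraries was above the WT/NTZ median.

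**Figure D2:**
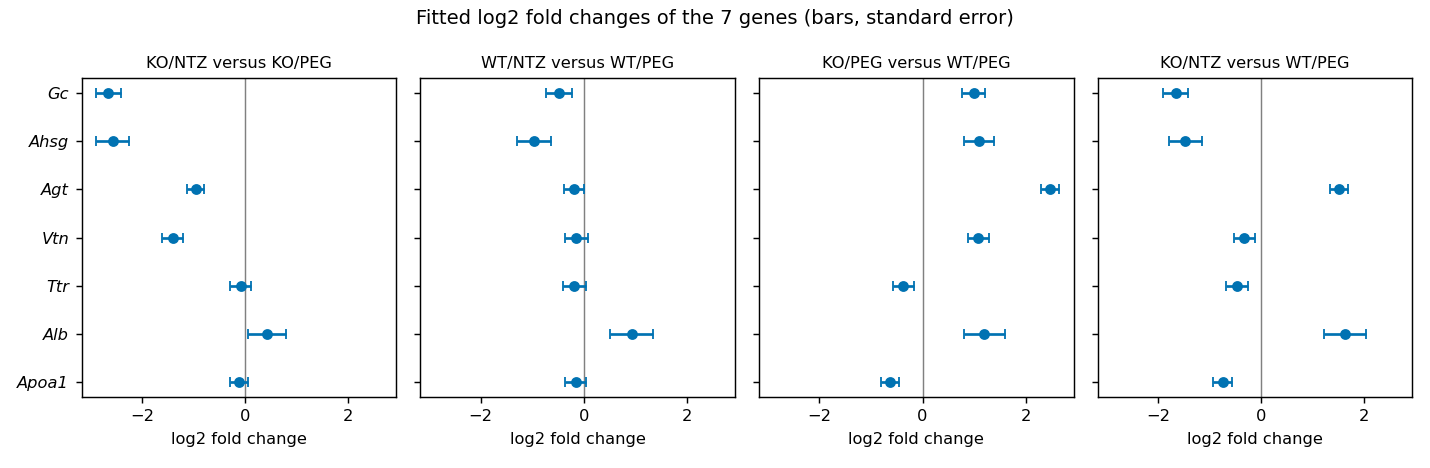
Fitted log2 fold changes of the 7 genes in 4 comparisons, with bars for the standard error. In KO/NTZ versus KO/PEG the points run from -2.65 for Gc to 0.43 for Alb, while in WT/NTZ versus WT/PEG they lie between -0.97 and 0.92.

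Levels can be compared between genes only per length, here as TPM, counts divided by transcript length and scaled to a common total. In the 11 WT/PEG libraries the medians were 1230 TPM for Apoa1, 131 for Ttr, 12.4 for Vtn, 8.43 for Gc, 5.8 for Agt, 2.22 for Ahsg and 1.21 for Alb. The SDs were 212, 39.3, 3.21, 3.17, 1.73, 1.03 and 0.508 TPM in the same order. The ranges of Vtn and Gc, of Gc and Agt, and of Ahsg and Alb overlapped, so the order within each of these pairs is not beyond the spread. Apoa1 was first. Alb and Ahsg were the lowest pair, and their order depended on the length used. With each transcript's own length their means were 1.24 and 2.3 TPM, and with 1 mean length per gene 2.24 and 1.98 TPM. By mean ± SD, in KO/PEG Agt (39.6 ± 7.04 TPM) and Vtn (41.0 ± 16.2 TPM) stood together, followed by Gc (27.2 ± 12.8 TPM). In KO/NTZ Agt (18.6 ± 4.35 TPM) and Vtn (14.7 ± 5.5 TPM) were again neighbours that overlap, while Gc was at 4.13 ± 1.84 TPM and Alb at 3.76 ± 1.2 TPM, and this pair depended on the length too (3.76 and 8.28 TPM with 1 mean length per gene). Ahsg was last there, at 0.892 ± 0.438 TPM.

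Hdc, the histamine-making gene of ECL cells, fell 3.91-fold with NTZ in knockouts (log2 fold change -1.97, SE 0.22, adjusted p = 1.03e-07). It was at 32.4 to 113 CPM in KO/PEG, 11.6 to 32.7 in KO/NTZ, 14.5 to 56.1 in WT/PEG and 9.14 to 24.6 in WT/NTZ. Whether the 7 genes also varied with Hdc among mice of the same group was tested within each group on log2 CPM, which uses no difference between groups. In all, 28 relations were tested by two-sided permutation of the pairings, exact in WT/NTZ, with p adjusted over the 28.

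In KO/PEG Vtn had the highest r with Hdc of the 7 genes. In the 13 libraries Pearson's r was 0.92 (permutation p = 2e-05, the smallest that these permutations can give, adjusted p = 0.00056) and Spearman's rho 0.91 (permutation p = 8e-05, adjusted p = 0.00224). Without the 2 libraries farthest from the median of Hdc, r was again 0.92. It was 0.92 in the 6 libraries of animals numbered below 100 and 0.89 in the 7 numbered 100 or above. As a description, 0.0336% of 14900 genes had an r with Hdc in KO/PEG at least as high. For the r of Vtn in WT/PEG and WT/NTZ these shares were 0.094% and 0.456%. In WT/PEG r was 0.83 (permutation p = 0.00164, adjusted p = 0.0157), in WT/NTZ 0.85 (exact permutation p = 0.00518, adjusted p = 0.0207) and in KO/NTZ 0.61 (permutation p = 0.0314, adjusted p = 0.0733). The rho values were 0.85, 0.83 and 0.61 (adjusted permutation p = 0.00952, 0.0386 and 0.135). Without the 2 farthest libraries the 3 values of r became 0.56, 0.97 and 0.38. The WT/PEG relation was then no longer past the threshold (adjusted permutation p = 0.262), with a rho of 0.73 (adjusted permutation p = 0.124). Leaving out the libraries farthest in Hdc narrows the range of Hdc and leaves fewer libraries. For any gene, a call lost in this way therefore does not show that the relation rested on those libraries.

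For Gc the relation held in 3 groups by r. It was 0.82 in WT/PEG (permutation p = 0.00402, adjusted p = 0.0188), 0.80 in WT/NTZ (exact permutation p = 0.0101, adjusted p = 0.0298) and 0.77 in KO/PEG (permutation p = 0.00338, adjusted p = 0.0188), against 0.52 in KO/NTZ (permutation p = 0.0966, adjusted p = 0.169). Spearman's rho was 0.71, 0.65, 0.69 and 0.61, with adjusted permutation p of 0.0633, 0.141, 0.0513 and 0.135. Without the 2 farthest libraries r was 0.55, 0.90, 0.49 and -0.06. The WT/PEG and KO/PEG relations were then no longer past the threshold (adjusted permutation p = 0.262 for both). In KO/PEG r was higher, at 0.90, when the libraries numbered 46 and 52 were left out instead.

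Ahsg and Agt were related to Hdc in WT/PEG, at r of 0.77 for both (permutation p = 0.00168 and 0.0107, adjusted p = 0.0157 and 0.0298) and rho of 0.86 and 0.55 (adjusted permutation p = 0.00877 and 0.141). Without the 2 farthest libraries r was 0.77 for Ahsg and 0.52 for Agt (adjusted permutation p = 0.0526 and 0.266), so neither relation was past the threshold without them. In KO/PEG their r was 0.48 and 0.45 (adjusted permutation p = 0.169 and 0.208), and in KO/NTZ 0.36 and -0.31 (adjusted permutation p = 0.319 and 0.428). Ttr and Apoa1, which NTZ did not separate in knockouts, were nevertheless related to Hdc in KO/PEG, at r of 0.76 and 0.70 (permutation p = 0.00308 and 0.0106, adjusted p = 0.0188 and 0.0298) and rho of 0.85 and 0.76 (adjusted permutation p = 0.00644 and 0.0185). Without the 2 farthest libraries their r was 0.84 and 0.75 (adjusted permutation p = 0.0101 and 0.0455). In the 6 libraries of animals numbered below 100 it was 0.49 and 0.40. In KO/NTZ the r of Ttr was 0.71 (permutation p = 0.0314, adjusted p = 0.0733) and became -0.07 without the 2 farthest libraries. Alb was not related to Hdc in any group at the threshold, with r of 0.27 and 0.50 in the wild-type groups given PEG and NTZ and of -0.04 and 0.09 in the knockout groups (adjusted permutation p = 0.491, 0.214, 0.932 and 0.868). Of 14900 genes, 0.248% and 0.242% had an r at least that of Ahsg and Agt in WT/PEG. For Ttr and Apoa1 in KO/PEG these shares were 0.826% and 1.5%.

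**Figure D3:**
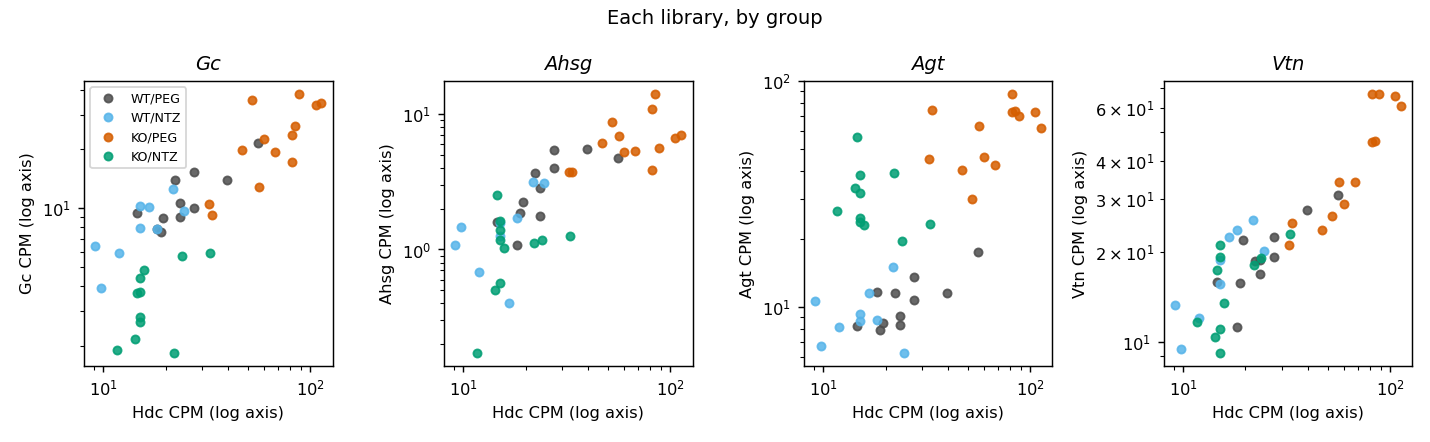
CPM of Gc, Ahsg, Agt and Vtn against CPM of Hdc, both on log axes, with 1 point per library coloured by group. KO/PEG libraries, at 32.4 to 113 CPM of Hdc, form a rising band for Vtn, and Agt values of KO/NTZ lie above wild-type values at similar Hdc.

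The genes most like each member were found by the correlation of log2 CPM over the 44 libraries after the 4 group means were subtracted, among 13940 other genes with a mean of at least 1 CPM. The values are descriptions, since all points share libraries and tissue composition. Gc was most like Chgb (0.85), Pcsk1 (0.81), Pappa2 (0.79), Scg5 (0.78) and Insm1 (0.75), of which Chgb, Pcsk1, Scg5 and Insm1 are genes of neuroendocrine secretory granules or of their differentiation. Vtn was most like Hdc (0.82), Chga (0.79), Ak1 (0.78), Pnliprp1 (0.78) and Aldh4a1 (0.77), and Ahsg like Cckbr (0.53), Hdc (0.52), Mtmr11 (0.52), Mc4r (0.52) and Tmem206 (0.51). For these 3 genes a neuroendocrine gene came first or, for Ahsg, the gastrin receptor gene of ECL cells, at lower values.

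Agt had other neighbours, among them Cnpy2 (0.76), Npc2 (0.75), Sdf4 (0.74) and Cxxc5 (0.74). Ttr was most like Pdia2 (0.87), Glod5 (0.86), Coq9 (0.84), Mdh1 (0.83) and Def8 (0.83), and Apoa1 like Fabp3 (0.91), Cox7a1 (0.89), D10Jhu81e (0.88), Msra (0.87) and Slc25a3 (0.87), several of them mitochondrial. Alb was most like Man2b1 (0.74), Tmem59 (0.73), Cpq (0.73), Slc39a11 (0.72) and Sema3b (0.71). Among the 7 genes themselves the highest values were those of Ttr with Apoa1 (0.76), Vtn with Ttr (0.73) and Gc with Vtn (0.70), and the lowest were those of Gc with Alb (0.02) and Gc with Agt (0.07).

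Other plasma protein genes of the liver were measured beside the 7. Of 80 in the data, 42 passed the filter. With NTZ in knockouts 3 fell and 2 rose, against a background of 2.6% lower and 2.97% higher, and the median log2 fold change was 0.08, against -0.01 over all genes. Serpina7, the thyroxine carrier, fell most, from 4.34 to 27.5 CPM in KO/PEG (median 13.3) to 0.544 to 3.76 CPM in KO/NTZ (median 1.17), with no overlap (log2 fold change -2.87, SE 0.41, adjusted p = 9.13e-06). Its change in wild type was -1.06 (SE 0.45, adjusted p = 0.462). Cp, the copper-carrying ferroxidase, fell 2.27-fold (adjusted p = 8.24e-04), and Serpina10, an inhibitor of coagulation factors near the limit of detection, 2.29-fold (adjusted p = 0.0449). Rbp4, the retinol carrier that travels with Ttr, rose 1.44-fold, and the apolipoprotein gene Apoa4 1.51-fold (adjusted p = 0.0368 for both). Serpina10, Rbp4 and Apoa4 lost the call under 2 to 6 alternatives each, while Serpina7 and Cp kept it in all 13.

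In KO/PEG versus WT/PEG 24 of these 42 genes were higher and 5 lower, against a background of 37.5% of genes higher and 37.2% lower, with a median log2 fold change of 0.758, against -0.003 over all genes. Itih2, an inter-alpha-trypsin inhibitor chain, Hgfac, which activates hepatocyte growth factor, and Afp, the fetal counterpart of albumin, rose 16.1-fold, 15.6-fold and 13.5-fold (adjusted p = 2.62e-14, 5.06e-15 and 2.99e-13). With NTZ in knockouts their log2 fold changes were 0.59 (SE 0.26), 0.34 (SE 0.25) and -0.20 (SE 0.26), and none of the 3 passed. Mug1, a proteinase inhibitor, fell 24.3-fold (adjusted p = 1.21e-14), and F5, coagulation factor V, rose 3.59-fold (adjusted p = 1.53e-10). KO/NTZ libraries held 50.6 to 179 CPM of Itih2 and 87.4 to 254 CPM of Hgfac, against 6.89 to 200 and 29.3 to 327 CPM in KO/PEG.

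In wild type, NTZ raised 2 of the 42. Fetub, the relative of Ahsg, rose 7.11-fold (adjusted p = 0.011), and Cfb of the complement system 2.46-fold (adjusted p = 0.0353), against a background of 1.03% higher. DESeq2 also called 2 of the 42, but 0 were called with limma-trend, with a fit of the wild-type groups alone or with the most abundant transcript of each gene. Without the WT/NTZ library richest in squamous genes only Cfb was called. Fetub was highest, at 52.3 CPM, in the WT/NTZ library with the highest squamous sum (3500 CPM), and at 1.02 CPM in the library numbered 99, which had the lowest (0.465 CPM). The part of squamous tissue in these values was not tested.

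**Figure D4:**
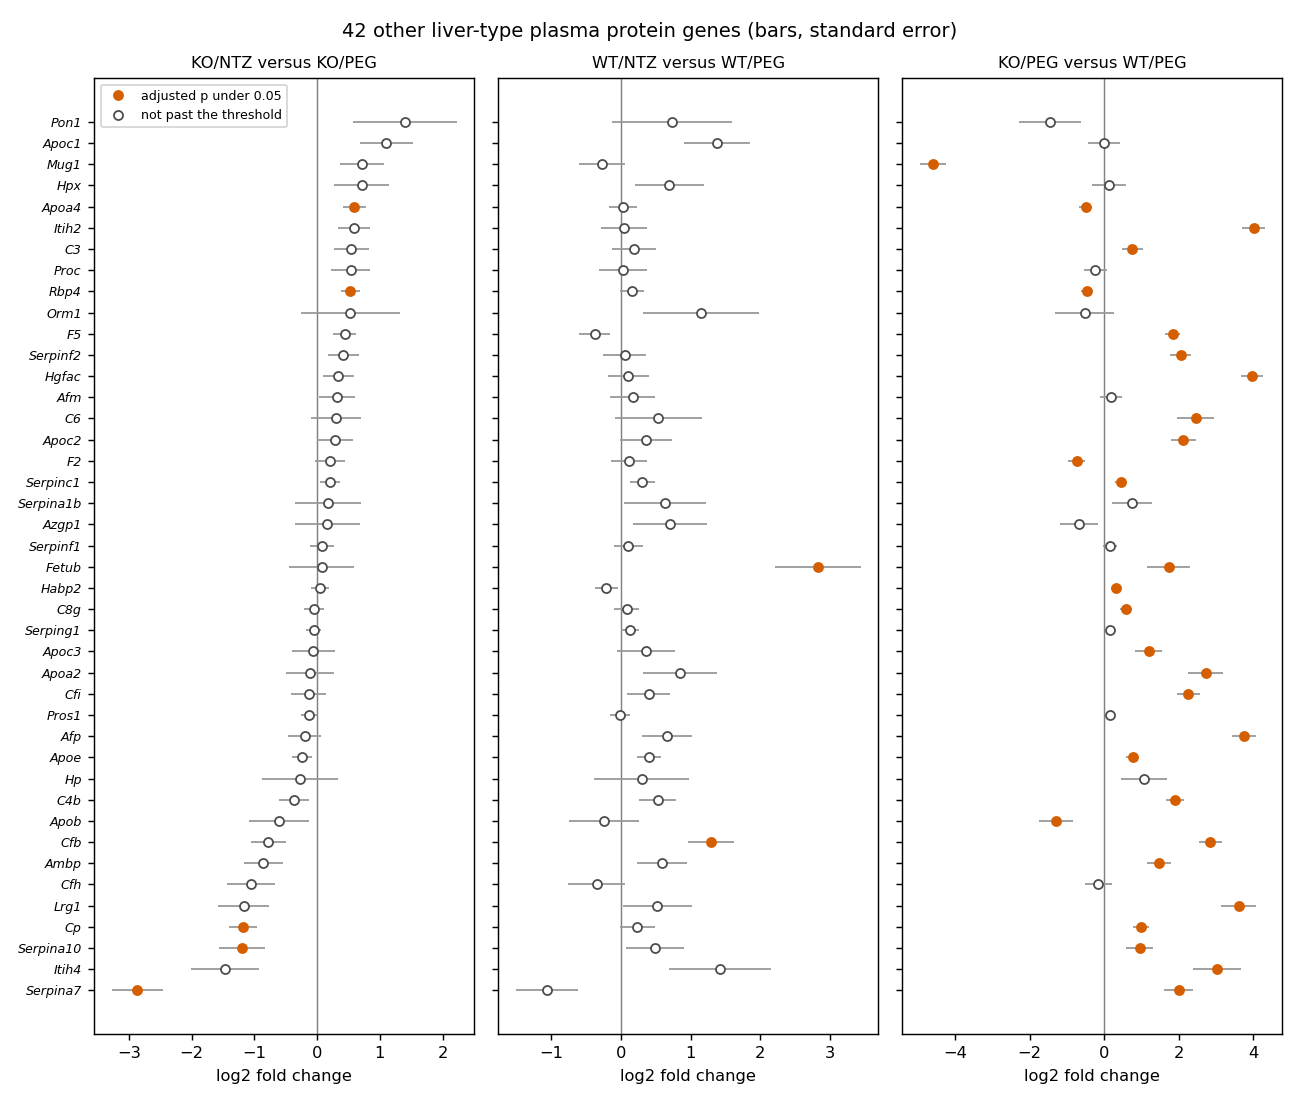
Fitted log2 fold changes of 42 other liver-type plasma protein genes in 3 comparisons, with bars for the standard error and filled points past the threshold. With NTZ in knockouts 5 points are filled and Serpina7 is lowest at -2.87, while 29 are filled in KO/PEG versus WT/PEG.

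Of 21 liver-type transcription factor genes tested, 1 fell with NTZ in knockouts and none rose, against a background of 2.6% lower and 2.97% higher. The gene that fell was Nr1i2, the pregnane X receptor, 1.41-fold lower (log2 fold change -0.49, SE 0.13, adjusted p = 0.0202). Hnf4a, a nuclear receptor of liver and gut, was at 106 to 162 CPM in KO/PEG and 102 to 141 CPM in KO/NTZ (log2 fold change -0.10, SE 0.08, adjusted p = 0.408). With loss of Atp4b 8 rose and 10 fell, against 37.5% and 37.2% of all genes. Cebpa rose 1.35 on the log2 scale (adjusted p = 1.32e-08), and Foxa2 fell by 1.20 (adjusted p = 2.18e-09). In wild type NTZ moved none of the 21 past the threshold.

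Among 22 genes of proteins that act with the 7, NTZ lowered 2 and raised 1 in knockouts, against a background of 2.6% lower and 2.97% higher. Itgb3, the beta chain of the vitronectin receptor, rose 1.44-fold (adjusted p = 0.00582), and its partner chain Itgav was at -0.17 (SE 0.13, adjusted p = 0.419). Ace, which makes angiotensin II, fell 1.37-fold (adjusted p = 0.00824). The angiotensin receptor genes Agtr1a and Agtr1b did not pass, at 0.00 (SE 0.30) and 0.01 (SE 0.30). Renin itself (Ren1) did not pass the filter, with a highest value of 1.09 CPM.

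Cell type markers show what else differed between the knockout groups. The background for the counts in this comparison was 2.6% of genes lower and 2.97% higher. Of 20 neuroendocrine genes, 7 fell with NTZ and 2 rose. Chgb and Chga, of the secretory granule, fell 2.87-fold and 2.32-fold (adjusted p = 1.3e-07 and 9.7e-07), Pcsk1 3.13-fold (adjusted p = 8.88e-06), and the inhibitor gene Pcsk1n rose 3.16-fold (adjusted p = 8.62e-05). The 21 genes summed to 942 to 2710 CPM in KO/PEG and 719 to 1070 CPM in KO/NTZ. All 5 red blood cell genes tested fell, Hbb-bs 4.63-fold (adjusted p = 0.00376), with median sums of 297 CPM in KO/PEG and 199 CPM in KO/NTZ and highest sums of 4110 and 425 CPM. No hepatocyte enzyme or transporter of 9 tested passed, and the 27 summed to 49.8 to 108 CPM and 50.9 to 82.1 CPM. The part of the neuroendocrine genes in the results of the 7 genes was not tested, and without the libraries numbered 46 and 52 the log2 fold changes of Gc, Ahsg, Agt and Vtn were -2.49, -2.56, -1.01 and -1.37.

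The calls in the remaining lists with NTZ in knockouts stand against the same background of 2.6% of genes lower and 2.97% higher. Among gastric hormones Sst rose 1.86-fold (1 of 4). Cel fell 2.15-fold among 9 genes of pancreas type, Kcnq1 1.49-fold among 6 parietal cell genes, and Msln 2.74-fold among 6 of mesothelium and fat. In muscle and stroma Acta2 and Des rose and Col1a1 and Col1a2 fell, of 8. Of 4 enterocyte genes Apoa4 rose. Chief and neck cells, surface mucous cells and squamous forestomach had no call among 6, 4 and 6 genes at the threshold of the edgeR test.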

How the data were processed

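RNA of the gastric corpus was sequenced (stranded mRNA libraries, single reads). The authors quantified the reads with kallisto 0.42.4 against GRCm38 and deposited expected counts (estimated counts, not normalized) for 94080 transcripts in 44 libraries. Groups were taken from the labels. Counts of 92372 transcripts were summed per gene with GENCODE release M21 and rounded. The other 1708 had no gene and held 0.329% to 1.3% of a library. The authors' columns were all used, and no column was left unmapped.

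With filterByExpr (minimum count 10, minimum total count 15), 14901 of 31484 genes were tested in edgeR 4.0.16 (R 4.3.3) with TMM normalization, 1 mean per group and the quasi-likelihood test on all 44 libraries. The p-values were adjusted by Benjamini-Hochberg over all 14901 genes, with a threshold of 0.05. The study tested transcripts with Sleuth, which was not used here. SEs are the size of the log2 fold change divided by the square root of F, and 95% intervals use the normal quantile. Log2 CPM used a prior count of 2, and TPM are transcript counts per length. Libraries were taken as separate samples. Where 2 come from 1 mouse, p-values cover a spread that is partly technical. Depth was 6065084 to 21945124 counts, and floors of 3 counts cover counting error only.

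The 7 genes and the gene lists were chosen with earlier results of these data known, so no count over a list is independent support. Named besides them are up to 5 genes per list and comparison with the smallest p past the threshold, 5 genes most like each member, Atp4b, and, chosen after their values were seen, Serpina10, Hnf4a, Cebpa, Itgav, Agtr1a, Agtr1b, Ren1, Otc, Cps1, Cyp7a1, Fah, Ass1, Cyp2e1, Arg1, Dynap, Rspo4 and the 6 liver genes of the library numbered 99. C5 and Tf were not analysed here, and 4 genes that the rule or lists would name are not reported here. Alternatives were DESeq2 size factors, no filter or a mean of at least 1 CPM, only the groups compared in the fit, DESeq2 1.42.0, limma-trend (limma 3.58.1), the 2 WT/PEG libraries that share an animal number summed, those numbered 110 left out, the most abundant transcript of each gene, and animals numbered below 100 or at least 100. Leaving out the libraries numbered 46 and 52, the one numbered 99 or the WT/NTZ library richest in squamous genes was chosen after seeing the data. On simulated data of 14901 genes with 200 changed, edgeR recovered 97% of 4-fold and 87% of 2-fold changes in KO/NTZ versus KO/PEG, with 12 false calls among 196. Promoters are from RefSeq, and correlations (SciPy 1.17.1) and plots (matplotlib 3.10.9) were made with Python 3.11.15.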

Additional observations from a re-analysis of the deposited data

Results flagged for a closer look

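In WT/NTZ, Alb was at 19.2 CPM in the library numbered 99, and the next highest of the 9 libraries was at 3.27 CPM. The gap was 0.883 of the range of the group, above Dixon's critical value for 9 samples. The 7 genes were each examined in this group, the size of which allows the rule, and chance puts about 1 in 20 groups past it. The same library held the only counts of Fgg, and Fga, Fgb and Kng1 at 1.3, 1.3 and 0.836 CPM, against at most 0.105, 0.136 and 0.0853 CPM in the other 43 libraries. Their part in the Alb value was not tested.

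Among the genes named from the lists, 8 had an NTZ effect that differed between KO and WT mice by the interaction term of the edgeR quasi-likelihood test. The background was 0.718% of genes with a lower and 0.242% with a higher effect in KO. The log2 difference, KO minus WT, was -2.07 for Cfb (adjusted p = 0.0103), -1.42 for Cp (adjusted p = 0.0249) and -0.79 for Nr1i2 (adjusted p = 0.0354). Among neuroendocrine genes it was -1.39 for Pcsk1 (adjusted p = 0.0256), -1.22 for Hdc (adjusted p = 0.0391), -1.19 for Chgb (adjusted p = 0.0103), -0.91 for Chga (adjusted p = 0.0301) and 1.57 for Pcsk1n (adjusted p = 0.0427).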

How the results depend on the processing

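Gc, Ahsg, Agt and Vtn had fitted log2 fold changes below 0 in KO/NTZ versus KO/PEG under all 13 alternatives, from -2.77 to -2.49, -2.59 to -2.43, -1.01 to -0.67 and -1.45 to -1.08. Values of the other 3 genes changed sign under some. Ttr in KO/NTZ versus KO/PEG was at 0.04 with limma-trend and 0.43 in animals numbered below 100, where Apoa1 was at 0.38. Alb in WT/NTZ versus WT/PEG was at -0.29 in animals numbered 100 or above and -0.01 without the library numbered 99. The NTZ effect in KO minus that in WT was 0.37 for Alb with limma-trend and 0.44 without the library numbered 99, and -0.05 for Apoa1 without the libraries numbered 46 and 52. The cause of these changes was not tested. With the most abundant transcript, Vtn in KO/NTZ versus WT/PEG was at -0.65 (adjusted p = 0.00855, over all alternatives 0.00855 to 0.236).

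Of all genes, 829 were called in KO/NTZ versus KO/PEG, 267 when the other groups were left out of the fit, 1248 with DESeq2, 383 with the most abundant transcript and 102 in animals numbered below 100. In WT/NTZ versus WT/PEG 154 were called, 0 with only the groups compared (1166 genes had an unadjusted p under 0.05 by edgeR in the fit of all groups), 2 with limma-trend, 46 with the most abundant transcript, 892 in animals numbered 100 or above and 89 without the WT/NTZ library richest in squamous genes. The interaction term called 36 genes higher and 107 lower, and in all 274 with DESeq2, 53 with limma-trend and 57 with the most abundant transcript. Of the 42 other plasma protein genes, 5 were called in KO/NTZ versus KO/PEG, 2 with no filter or without the libraries numbered 46 and 52, and 3 with only the groups compared, without the libraries numbered 110, with the most abundant transcript or in animals numbered below 100. In WT/NTZ versus WT/PEG 2 were called, 0 with only the groups compared, limma-trend or the most abundant transcript, 1 with the libraries of the shared animal number summed or without the library richest in squamous genes, and 4 in animals numbered 100 or above. In KO/NTZ versus WT/NTZ 19 were called and 29 with no filter. For the difference of the NTZ effect 2 were called and 0 with the most abundant transcript. Members related to Hdc numbered 4 in WT/PEG, 2 by rank and 0 without the 2 farthest libraries, 2 in WT/NTZ and 1 by rank, and 4 in KO/PEG and 1 in animals numbered below 100. The permutation test was run for the members only, so these counts have no share over all genes beside them.

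No paired analysis was possible because the groups compared share fewer than 2 animal numbers. Depth limits Ahsg and Alb most, since their lowest values were 0.172 and 0.338 CPM. The floor of 3 counts was 0.137 to 0.495 CPM, computed without TMM normalization. In the KO/NTZ library with the lowest Ahsg value this floor was 0.471 CPM, so that value lay below it.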

Other observations

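The counts of Gc, Vtn and Apoa1 are sums over several annotated transcripts, whose shares differed between the genotypes. The shorter protein-coding transcript of Apoa1, of 602 bases, took 3.15% to 12.9% of the Apoa1 counts in WT/PEG (median 8.17%) and 0.689% to 11.1% in WT/NTZ. It took 0% to 0.358% in KO/PEG and 0% to 0.167% in KO/NTZ, and all 13 KO/PEG and all 11 KO/NTZ libraries were below the lowest WT/PEG library. A Vtn transcript of 678 bases with a retained intron took 0% to 11.5% of the Vtn counts in WT/PEG, 10.3% to 33.6% in KO/PEG and 15.3% to 36.4% in KO/NTZ. The shorter Gc transcript, of 444 bases, took 3.98% to 15.9% of the Gc counts in WT/PEG, 12.9% to 32.7% in KO/PEG and 8.22% to 38.5% in KO/NTZ. For Vtn and Gc the 2 knockout groups overlapped widely, while 12 and 11 of 13 KO/PEG libraries were above the highest WT/PEG library. These shares were chosen after seeing the data and were not tested, and the estimates divide reads that transcripts of a gene share.

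Of 22 genes whose proteins act with the 7, 8 were higher and 13 lower in KO/PEG versus WT/PEG by edgeR, against a background of 37.5% of genes higher and 37.2% lower. Plaur, the urokinase receptor that binds Vtn, rose 8.6-fold (adjusted p = 2.27e-14), and Fcgrt, the receptor that recycles albumin and IgG, 2.21-fold (adjusted p = 4.32e-08). Scarb1, the receptor of high-density lipoprotein, rose 1.5-fold (adjusted p = 1.29e-08). Cyp27b1, which activates vitamin D, fell 4.39-fold (adjusted p = 4.05e-10), and Enpep, which trims angiotensin II, 3.82-fold (adjusted p = 2.62e-07).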
